A study of Mus musculus and Acomys cahirinus with 25 samples.

Results

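Matricellular glycoproteins are secreted proteins that sit in the extracellular matrix and act mainly on cells rather than as load-bearing fibers. The 10 genes described here were chosen by name, with earlier results of these data known. These genes are the tenascins Tnc, Tnn and Tnxb, fibronectin (Fn1), periostin (Postn), osteopontin (Spp1), Sparc and the thrombospondins Thbs1, Thbs2 and Thbs4. They are 10 of the 24500 gene symbols counted in each of 25 RNA-seq libraries of dorsal skin. The study used wounds that regenerate hair follicles, in the laboratory mouse at the wound center only and in the spiny mouse Acomys cahirinus across the wound. Laboratory mice had a full thickness wound made at 4 weeks of age, and all of their libraries are from post-wound day (PWD) 14. The study's main strain was C57BL/6J, while K14-Cre-Twist1 mice came from a cross and had wild-type Twist1 animals as their controls, so the 5 wild-type center dermis libraries may not share 1 stock. Their wild-type groups are epidermis of the wound center (2 libraries), epidermis of the wound margin (2), dermis of the center (5) and dermis of the margin (2). A further 2 libraries are center dermis of K14-Cre-Twist1 mice, in which Cre driven by the keratin 14 promoter removes Twist1 from keratinocytes, so the sequenced layer is not the one that carries the deletion. Wild-type spiny mice were wounded at 8 weeks of age and the whole wound was taken, with no division by region. PWD0 is unwounded skin, with 1 epidermis and 2 dermis libraries. The later spiny mouse days are PWD14 (2 epidermis, 1 dermis), PWD21 (2 of each layer) and PWD28 (1 of each layer).

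In adult skin most matricellular genes are expressed at low levels and are switched on in fibroblasts of a healing wound, where the proteins lower or raise adhesion of cells to the matrix and bind growth factors. Tenascin-C loosens the grip of cells on fibronectin, and fibronectin is the provisional matrix over which cells enter a wound. Tenascin-X differs from both, since it is a protein of mature connective tissue that is associated with collagen fibrils, and its loss makes skin hyperextensible.

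Libraries held 5669760 to 86532134 reads on genes. Values are given as CPM, the counts of a gene scaled to a library total of 1000000 gene reads, and 3 counts, which correspond to 0.0347 to 0.529 CPM depending on the library, were taken as the smallest detectable amount. Spiny mouse reads were aligned to the laboratory mouse genome, and 24.4% to 52.9% of the reads accounted for in a file fell on genes, against 57.7% to 69.8% in the laboratory mouse, so no level was compared between the species. In spiny mouse dermis this share and the depth also went with the day. At PWD0 they were 27.0% and 32.8%, with 5669760 and 6804714 gene reads. At PWD21 they were 44.9% and 52.9%, with 21927269 and 34751956 gene reads. Their part in the differences between days was not tested. In the laboratory mouse the epidermis was read paired-end and the dermis single-end, so layer and read type cannot be told apart there. All spiny mouse libraries were single-end. The summed levels of 14 keratinocyte and 15 fibroblast marker genes were each higher in their own layer in both species, but dermis was not free of keratinocyte markers. In spiny mouse dermis these markers summed to 12438 and 8863 CPM at PWD0, against 55714 CPM in PWD0 epidermis. At PWD28 they summed to 4880 CPM in dermis against 42683 CPM in epidermis. The dermis library richest in them was from the laboratory mouse. K14-Cre-Twist1 dermis replicate 2 had a summed keratinocyte level of 36561 CPM, whereas replicate 1 had 1047 CPM and the 5 wild-type center dermis libraries 41.1 to 663 CPM. Results that rest on this library are given with and without it. In bulk tissue, fewer cells of a type and less RNA per cell cannot be told apart.

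The gene starts are shown first for the tenascins, because Tnc and Tnn made the widest excursions in spiny mouse dermis and Tnxb moved opposite to them. On the RefSeq annotation of GRCm38.p6, Tnc lies on the minus strand of chromosome 4 from 63959785 to 64047015, Tnn on the minus strand of chromosome 1 from 160085029 to 160153692, and Tnxb on the plus strand of chromosome 17 from 34660453 to 34719815. GENCODE places the start of Tnxb further in, at 34670535. The 250 bases before a start in the RefSeq promoter table are printed 5′ to 3′, with each E-box (CANNTG, the core site of basic helix-loop-helix factors, the same on both strands), AP-1 site (TGANTCA, the same on both strands) and TATA box (TATAAA, searched on both strands) in capitals. The windows are chr4:64047016-64047265 for Tnc, chr1:160153576-160153825 for Tnn and chr17:34670285-34670534 for Tnxb. The start used for Tnn lies inside the gene range given above, so its window overlaps that range. That of Tnxb is the GENCODE start. For Tnc 1 of 2 windows is shown.
Tnc: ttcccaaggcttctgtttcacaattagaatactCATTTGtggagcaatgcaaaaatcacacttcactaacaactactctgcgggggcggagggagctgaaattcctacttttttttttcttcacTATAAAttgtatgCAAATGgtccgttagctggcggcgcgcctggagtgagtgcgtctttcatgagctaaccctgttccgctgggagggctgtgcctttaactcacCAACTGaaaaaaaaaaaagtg
Tnn: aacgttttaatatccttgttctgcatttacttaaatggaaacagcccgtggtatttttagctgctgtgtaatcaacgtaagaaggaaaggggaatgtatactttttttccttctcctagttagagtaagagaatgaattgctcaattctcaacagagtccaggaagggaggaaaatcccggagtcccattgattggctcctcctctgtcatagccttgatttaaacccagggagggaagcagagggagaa
Tnxb: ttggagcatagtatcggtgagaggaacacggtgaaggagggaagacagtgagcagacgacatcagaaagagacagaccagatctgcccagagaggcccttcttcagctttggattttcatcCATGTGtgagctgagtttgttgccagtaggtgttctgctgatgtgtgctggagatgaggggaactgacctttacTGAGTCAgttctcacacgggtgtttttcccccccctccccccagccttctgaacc
The Tnc window held 3 E-boxes and 1 TATA box, the Tnxb window 1 E-box and 1 AP-1 site, and the Tnn window none of these letters. Among 32851 mouse promoters of the same length, 66.2% held an E-box, 6.75% an AP-1 site and 12.4% a TATA box. RefSeq gave 11 windows for 8 of the 10 genes, of which 8 windows held an E-box, 1 an AP-1 site and 5 a TATA box (in Tnc, Postn, Spp1 and Thbs2). The 2 Tnc windows overlap, and matches in the shared bases, among them the TATA box letters, are counted in both. The TATA box letters began 26 bases before the start in Postn, 126 in Thbs2 and in the Tnc window shown, and 211 in Spp1. These are letter matches only, whatever their position, and binding was not measured.

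From unwounded spiny mouse dermis to the wound, Tnc, Tnn, Fn1, Postn, Spp1, Thbs2 and Thbs4 rose, Tnxb fell, and Sparc and Thbs1 did not pass the test. At PWD21, 7 of the 10 genes were higher than at PWD0 and 1 was lower. The threshold was a false discovery rate (FDR) of 0.05 over all genes tested by edgeR, and 26.2% of the 14481 genes passed it, 12.0% as higher and 14.2% as lower. At PWD14 the same counts, 7 higher and 1 lower, were found with 1 library against 2, in a fit of all 6 dermis libraries in which 18.5% of 15344 genes were called, 7.95% higher and 10.5% lower. Both comparisons share the 2 unwounded libraries.

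Tenascin-C, which is known for its brief expression at wound edges, had 39.5 and 21.9 CPM in the 2 unwounded dermis libraries, 4959 CPM at PWD14, 2102 and 1537 CPM at PWD21 and 126 CPM at PWD28. Each wound library was above both unwounded libraries, and the levels were lower on each later day. Against the mean of PWD0 the rise was 162-fold at PWD14 (log2 fold change 7.53, standard error 0.62, FDR = 0.000434) and 59.3-fold at PWD21 (log2 fold change 5.74, standard error 0.53, FDR = 0.000381).

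Tenascin-N, also called tenascin-W, is a close relative of tenascin-C. It had 0 and 2.65 CPM in unwounded dermis, that is 0 and 18 counts, then 1448 CPM at PWD14, 594 and 589 CPM at PWD21 and 14.3 CPM at PWD28. It went from near the limit of detection to a peak at PWD14 and back to a low level. Its log2 fold change over PWD0 was 10.33 at PWD14 (standard error 1.09, FDR = 0.000962) and 8.71 at PWD21 (FDR = 0.000851), values that depend on a few counts in unwounded skin.

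Tenascin-X ran the other way. Tnxb had 137 and 163 CPM in unwounded dermis, 3.71 CPM at PWD14, 7.43 and 15.9 CPM at PWD21 and 93.4 CPM at PWD28. Unwounded skin and the wound did not overlap at any day, and the PWD28 library lay closest to the unwounded ones. Tnxb was 40.4-fold lower by the means at PWD14 (log2 fold change -5.10, standard error 0.62, FDR = 0.00158) and 12.9-fold lower at PWD21 (log2 fold change -3.77, standard error 0.42, FDR = 0.000747).

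**Figure D1:**
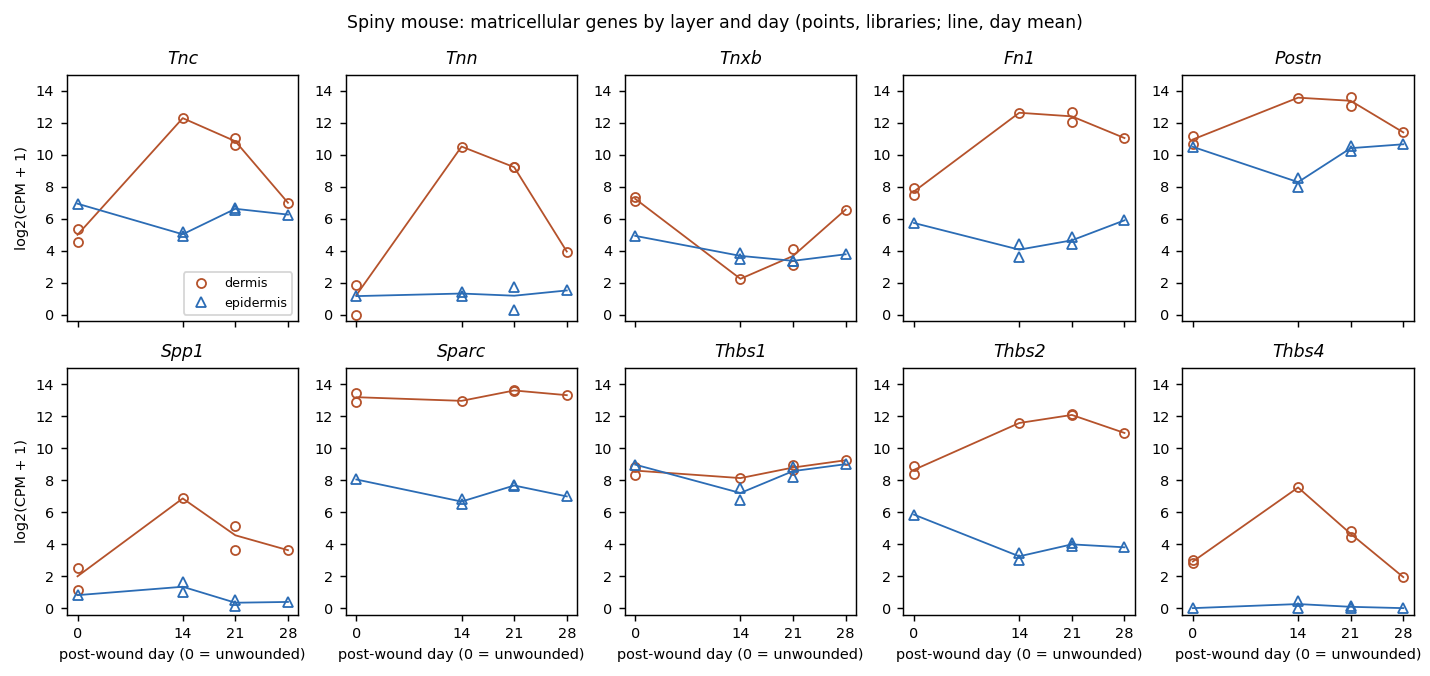
Levels of the 10 genes in spiny mouse skin, with log2(CPM + 1) on the vertical axis and post-wound day on the horizontal axis. Circles are dermis libraries, triangles are epidermis libraries and lines join the day means. In dermis, Tnc and Tnn peak at PWD14 and Tnxb is lowest there, while Sparc and Thbs1 stay level and Thbs1 runs at similar heights in both layers.

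Fibronectin and periostin, both matrix proteins of the repair tissue, rose as well. Fn1, the provisional matrix protein, had 177 and 236 CPM in unwounded dermis, 6259 CPM at PWD14, 4227 and 6482 CPM at PWD21 and 2093 CPM at PWD28. All wound libraries were far above the unwounded ones, and at PWD28 Fn1 was still well above them. Its change was 30.4-fold at PWD14 (log2 fold change 5.16, standard error 0.59, FDR = 0.0013) and 26.0-fold at PWD21 (log2 fold change 4.61, standard error 0.54, FDR = 0.000959).

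Periostin, which helps to cross-link collagen, had 2331 and 1605 CPM at PWD0, 12033 CPM at PWD14, 12604 and 8413 CPM at PWD21 and 2675 CPM at PWD28. The PWD14 and PWD21 libraries were above the unwounded ones, and the PWD28 library lay just above the higher of them. The rise was 6.11-fold at PWD14 (log2 fold change 2.81, standard error 0.68, FDR = 0.0251) and 5.34-fold at PWD21 (log2 fold change 2.27, standard error 0.64, FDR = 0.032). Without PWD21 replicate 1 or 2 the FDR at PWD21 was 0.181 and 0.173, and at PWD14 it was 0.129 and 0.161.

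Osteopontin, a ligand of integrins and CD44 made by macrophages and other cells, also peaked at PWD14. Spp1 had 4.76 and 1.18 CPM at PWD0, 115 CPM at PWD14, 33.5 and 11.4 CPM at PWD21 and 11.3 CPM at PWD28. Its log2 fold change was 5.46 at PWD14 (FDR = 0.00373) and 2.75 at PWD21 (FDR = 0.0279), the latter 1.83 with FDR = 0.204 without PWD21 replicate 1. The summed level of 12 macrophage markers was 331 and 449.5 CPM at PWD0, 447 CPM at PWD14 and 820 and 524 CPM at PWD21, so PWD21 replicate 1 was the higher of its pair for both. The part of macrophages in the change was not tested.

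The thrombospondins did not move as a family. Thbs2, an inhibitor of angiogenesis that also affects collagen fibril assembly, had 334 and 463 CPM at PWD0, 3034 CPM at PWD14, 4387 and 4219 CPM at PWD21 and 1971 CPM at PWD28. Unlike the tenascins it was highest at PWD21, with a log2 fold change over PWD0 of 3.17 at PWD14 (FDR = 0.0038) and 3.34 at PWD21 (FDR = 0.00187).

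Thbs4, a thrombospondin of tendon and muscle matrix, had 6.88 and 6.17 CPM at PWD0, 185 CPM at PWD14, 20.9 and 27.1 CPM at PWD21 and 2.83 CPM at PWD28. It peaked at PWD14 (log2 fold change 5.04, standard error 0.38, FDR = 0.000365), was still higher at PWD21 (log2 fold change 1.77, standard error 0.37, FDR = 0.011, and FDR = 0.0973 without PWD21 replicate 2), and at PWD28 lay under both unwounded libraries. The summed level of 4 tendon markers was 66.7 and 60.4 CPM at PWD0, 78.4 CPM at PWD14, 244 and 398 CPM at PWD21 and 371 CPM at PWD28. Of these 4 markers 1 was called higher and 2 lower over PWD0 on each day, with a median log2 fold change of -2.02 at PWD14 and -1.08 at PWD21. Among all genes, 7.95% were called higher and 10.5% lower at PWD14, and 12.0% higher and 14.2% lower at PWD21.

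Thbs1, an activator of latent TGF-beta, had 312 and 459 CPM at PWD0, 278 CPM at PWD14, 392 and 487 CPM at PWD21 and 604 CPM at PWD28. These values span a narrow range and the PWD21 and PWD0 libraries overlapped. The log2 differences from PWD0 were -0.23 (standard error 0.38, FDR = 0.706) at PWD14 and 0.11 (standard error 0.31, FDR = 0.826) at PWD21.

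Sparc, a collagen-binding protein, had 10995 and 7562 CPM at PWD0, 7923 CPM at PWD14, 12380.4 and 12438 CPM at PWD21 and 10126 CPM at PWD28. Both PWD21 libraries were above both unwounded ones, a position that is common by chance with so few libraries and whose share over all genes was not counted. Its log2 differences from PWD0 were -0.03 (standard error 0.78, FDR = 0.984) at PWD14 and 0.28 (standard error 0.71, FDR = 0.797) at PWD21.

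From PWD21 to PWD28, 1 library against 2, Tnc and Thbs4 fell and Tnxb rose, 3 of the 10 genes against 1.67% of 15344 genes called in either direction, 1.40% higher and 0.274% lower. The PWD28 library lay below both PWD21 libraries for Tnc, Tnn, Fn1, Postn, Spp1, Sparc, Thbs2 and Thbs4, and above both for Tnxb and Thbs1. With 1 library against 2 such a position is common by chance, and its share over all genes was not counted. The log2 fold changes were -4.03 for Tnc (standard error 0.69, FDR = 0.0306), -3.27 for Thbs4 (standard error 0.45, FDR = 0.0165) and 2.80 for Tnxb (standard error 0.45, FDR = 0.0255). Tnn had the largest difference, -5.55 (standard error 1.16), and missed the threshold (FDR = 0.0601). The calls rest on few libraries: without PWD21 replicate 1 the FDR was 0.239 for Tnc, 0.142 for Thbs4 and 0.157 for Tnxb, and without PWD21 replicate 2 it was 0.146 for Tnc and 0.0559 for Thbs4.

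**Figure D2:**
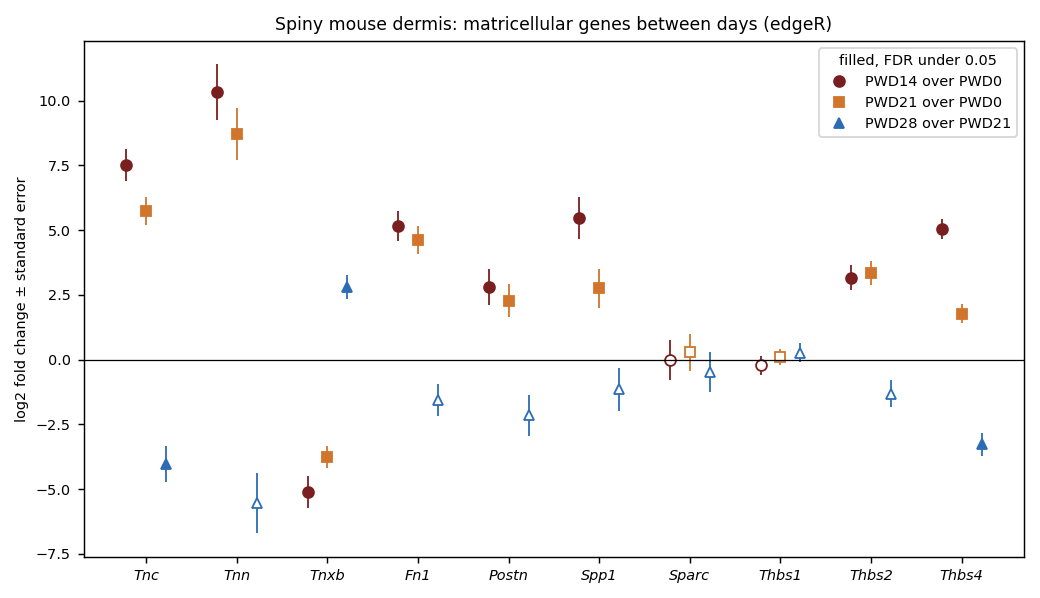
Log2 fold changes of the 10 genes between days in spiny mouse dermis, with bars of 1 standard error from the edgeR fits. Filled symbols passed an FDR of 0.05. The 7 genes that rose by PWD14 and PWD21 lie below 0 from PWD21 to PWD28, and Tnxb has the opposite signs.

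Further matricellular and receptor genes were counted in the same tests. Of 28 further matricellular genes 26 were tested, and at PWD21 over PWD0 10 rose and 6 fell, with a median log2 fold change of 0.42, against 2.51 for the 10 genes and 0.03 for all genes tested. At PWD14 over PWD0, 11 rose and 5 fell (median 0.09, against 4.11 for the 10 genes and -0.05 for all genes). Of all genes tested, 12.0% were called higher and 14.2% lower at PWD21, and 7.95% higher and 10.5% lower at PWD14. Among them were Ccn3, a CCN family protein counted as Nov (log2 fold change 4.96, standard error 0.48, FDR = 0.000453 at PWD21), Emilin1, an elastic fiber protein (log2 fold change 4.41, standard error 0.43, FDR = 0.000706 at PWD14), and Comp, a cartilage and tendon thrombospondin that fell (log2 fold change -7.92, standard error 0.69, FDR = 0.000331). Of 18 receptor genes, 6 rose and 2 fell at PWD21, including the integrin subunits Itgb5 (log2 fold change 2.14, standard error 0.29, FDR = 0.00165) and Itga4 (log2 fold change 3.75, standard error 0.68, FDR = 0.00621), and the syndecan Sdc1 fell (log2 fold change -1.83, standard error 0.31, FDR = 0.00476). At PWD28 over PWD21 none of 18 receptor genes was called by edgeR, with 4 at an unadjusted p under 0.05, against 11% of all genes tested.

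The makeup of the dermis libraries moved with these changes, and its part in them was not tested. All 15 fibroblast markers were detected, with summed levels of 104122 and 72412 CPM at PWD0, 150299 CPM at PWD14, 136338 and 172607 CPM at PWD21 and 103912 CPM at PWD28. Of them 8 rose and none fell at PWD21 over PWD0, with a median log2 fold change of 1.38, and 7 rose at PWD14 (median 1.49). Keratinocyte markers were highest in unwounded dermis, at 12438 and 8863 CPM against 807 to 4880 CPM in the wound, and 8 skeletal muscle markers were also highest there, at 222 and 501 CPM against 102 to 146 CPM. All 5 adipocyte markers were lower than at PWD0 on both days, with median log2 fold changes of -11.41 at PWD14 and -5.33 at PWD21. Of 6 endothelial markers, 3 were higher at PWD21 (median 1.04) and 1 at PWD14 (median 0.55). The shares called over all genes were 12.0% higher and 14.2% lower at PWD21, and 7.95% higher and 10.5% lower at PWD14.

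In spiny mouse epidermis Tnc, Postn and Thbs1 were lower at PWD14 than in unwounded skin and than at PWD21. At PWD14 over PWD0, 2 libraries against 1, 6 of 9 tested genes fell (Tnc, Fn1, Postn, Sparc, Thbs1 and Thbs2) and none rose, while 48.8% of 14336 genes were called, 26.1% as lower. Without PWD14 replicate 2 the calls of Fn1 (FDR = 0.083) and Sparc (FDR = 0.0604) were lost. At PWD14 over PWD21, 3 of 9 were lower (Tnc, Postn and Thbs1) and 2 were higher (Tnxb and Spp1), against 46.6% of 12889 genes called in either direction, 23.4% higher and 23.2% lower. With 9 genes tested, the counts at PWD14 over PWD21 lie near these shares. Both comparisons share the PWD14 libraries. Thbs4 had 0 to 0.388 CPM and was not tested.

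Periostin had 1428 CPM at PWD0, 247 and 371 CPM at PWD14, 1185 and 1514 CPM at PWD21 and 1598 CPM at PWD28. The 2 PWD14 libraries were below all others. By the mean CPM PWD14 was 4.62-fold lower than PWD0 and 4.36-fold lower than PWD21, larger differences than in the test, which rescales the libraries. Scaling by library size alone moved the median of all genes by -0.72 against PWD0 and -0.55 against PWD21. The log2 fold change of PWD14 was -1.49 against PWD0 (standard error 0.24, FDR = 0.000493) and -1.58 against PWD21 (standard error 0.20, FDR = 0.000159).

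Tenascin-C had 121 CPM at PWD0, 34.1 and 28.7 CPM at PWD14, 99.8 and 93.7 CPM at PWD21 and 75.0 CPM at PWD28. It followed the same course, lowest at PWD14, which is the day at which Tnc was highest in dermis. The log2 fold change of PWD14 was -1.22 against PWD0 (FDR = 0.00104) and -1.07 against PWD21 (FDR = 0.000926).

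Thbs1 had 499.7 CPM at PWD0, 107 and 184 CPM at PWD14, 298 and 456 CPM at PWD21 and 508 CPM at PWD28, again lowest at PWD14 without overlap. Its log2 fold change was -1.07 against PWD0 (FDR = 0.0123) and -0.82 against PWD21 (FDR = 0.0169), and the second lost its call without PWD14 replicate 1 (FDR = 0.0614) or PWD21 replicate 2 (FDR = 0.15). Thbs2 had 56.4 CPM at PWD0 and 7.08 to 16.2 CPM in the 5 wound libraries, with a log2 fold change from PWD0 to PWD14 of -2.03 (FDR = 0.000252).

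Spp1 was at 1.01 and 2.04 CPM at PWD14 against 0.414 and 0.114 CPM at PWD21, and 0.755 and 0.308 CPM at PWD0 and PWD28. It was higher at PWD14 than at PWD21 (log2 fold change 2.85, standard error 0.69, FDR = 0.00608), at low levels in all libraries, and without PWD14 replicate 2 the FDR was 0.0619. Tnxb had 29.3 CPM at PWD0, 13.6 and 9.89 CPM at PWD14, 9.22 and 9.31 CPM at PWD21 and 12.6 CPM at PWD28. Its call at PWD14 over PWD21 (log2 fold change 0.88, standard error 0.27, FDR = 0.0192) was lost when libraries were scaled by their size alone (log2 fold change 0.33, FDR = 0.308), a change that moved the median of all genes by -0.55. It was also lost without PWD14 replicate 1 (FDR = 0.0858), PWD21 replicate 1 (0.1) or PWD21 replicate 2 (0.101). In these epidermis libraries 5 adipocyte markers summed to 38.0 CPM at PWD0, 6303 and 5160 CPM at PWD14, 1350 and 1053 CPM at PWD21 and 93.4 CPM at PWD28. Only 2 of the 5 passed the filter on low counts, of which 1 was higher and 1 lower at PWD14 against both PWD0 and PWD21, and their part in the changes was not tested.

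Epidermis was then compared with dermis. At PWD21 in the spiny mouse, 8 of 10 genes were lower in epidermis than in dermis, where 62.9% of 14966 genes were called, 33.5% as lower. Fn1, Sparc, Thbs2, Thbs4, Tnn and Spp1 in epidermis were at 0.214% to 1.62% of their dermal means, and the fibroblast marker list was at 0.238%. Tnc was at 5.32% and Postn at 12.8%, both still lower (log2 fold change -4.10, standard error 0.28, FDR = 1.83e-05 and log2 fold change -2.84, standard error 0.38, FDR = 0.000523). Thbs1 was at 85.7% (log2 fold change -0.12, standard error 0.25, FDR = 0.705) and Tnxb at 79.5% (log2 fold change -0.23, standard error 0.39, FDR = 0.629), with overlapping libraries for both. Without PWD21 dermis replicate 1 the log2 difference of Tnxb was -0.72 (FDR = 0.036).

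The share of epidermis changed with the day. In unwounded spiny mouse skin Tnc was higher in the 1 epidermis library, 121 CPM, than in the 2 dermis libraries, 39.5 and 21.9 CPM, which is 394% of the dermal mean, and at PWD14 it was at 0.633%. Thbs1 in epidermis was at 129.7%, 52.3%, 85.7% and 84.2% of dermis at PWD0, PWD14, PWD21 and PWD28, and Postn at 72.6%, 2.57%, 12.8% and 59.8%. Tnxb was at 19.5%, 316%, 79.5% and 13.5% on these days. Its epidermal means were 29.3, 11.7, 9.26 and 12.6 CPM, so the high share at PWD14 is set by the low dermal level of 3.71 CPM. Over the same days the 15 fibroblast markers in epidermis summed to between 201 and 511 CPM, 0.194% to 0.278% of dermis. These day-by-day shares have 1 library in at least 1 layer at PWD0, PWD14 and PWD28 and were not tested.

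In the laboratory mouse all 10 genes were lower in center epidermis than in center dermis, and 9 of 10 were at the margin, where Tnxb was the exception (log2 fold change -0.92, standard error 0.68, FDR = 0.298, and -3.11 with FDR = 0.000615 without margin epidermis replicate 2). Of all genes, 51.8% were called at the center, 25.0% as lower, and 47.7% at the margin, 26.8% as lower. The call of Spp1 at the center was lost without center epidermis replicate 1 (FDR = 0.0512), and that of Thbs1 at the margin without margin dermis replicate 1 (FDR = 0.087). At the center the epidermal means were 0.817% to 5.08% of the dermal means except for Tnxb (0.124%), and the fibroblast markers were at 4.23%. At the margin the fibroblast markers were at 1.22%, 8 genes at 0.513% to 2.06%, Thbs1 at 12.1% and Tnxb at 29.4%.

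**Figure D3:**
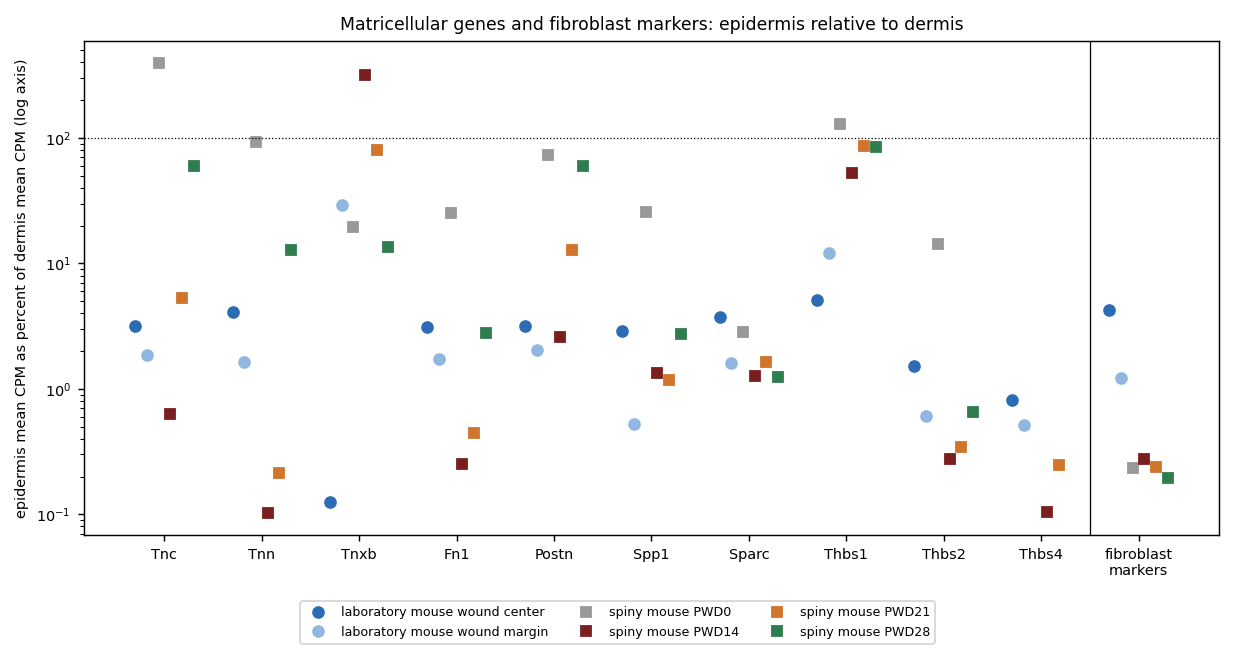
Mean epidermal CPM as a percent of mean dermal CPM, on a log axis, for the 10 genes and the summed fibroblast markers, at the laboratory mouse wound center and margin (circles) and at 4 spiny mouse days (squares). The dotted line marks equal levels in both layers, and values of 0 (Thbs4 at PWD0 and PWD28) are not drawn. Thbs1 stays near the line in the spiny mouse, and the fibroblast markers lie far below it.

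The wound center is where hair follicles form in the laboratory mouse, and the center was compared with the margin in each layer. In epidermis 2 of the 10 genes, Spp1 and Fn1, were higher at the center and none was lower, against 1.24% of 14165 genes called, 0.882% as higher. Spp1 had 10.2 and 18.1 CPM at the center and 0.794 and 0.948 CPM at the margin. The center libraries were higher by an order of magnitude (log2 fold change 3.90, standard error 0.53, FDR = 0.0421). Fn1 had 113 and 101 CPM at the center and 24.5 and 33.5 CPM at the margin, a 3.70-fold difference of the means (log2 fold change 1.78, standard error 0.23, FDR = 0.039). The calls were near the threshold: Fn1 missed it without center replicate 1 (FDR = 0.194) or 2 (0.151), and Spp1 without center replicate 2 (0.104).

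The other genes of center epidermis pointed mostly the same way without passing the test. Tnc had 75.5 and 84.5 CPM against 28.7 and 16.5 CPM (log2 fold change 1.73, standard error 0.35, FDR = 0.0825), and Tnn 43.9 and 37.9 CPM against 10.4 and 4.31 CPM (log2 fold change 2.44, standard error 0.47, FDR = 0.078). Postn, Sparc and Thbs2 had means 2.33- to 2.36-fold those of the margin with FDR values of 0.13 to 0.24. Their center and margin libraries did not overlap, but with so few libraries this is common by chance. The share of all genes without overlap was not counted. Thbs1 had 28.1 and 31.1 CPM at the center against 50.1 and 39.0 CPM at the margin (log2 fold change -0.70, standard error 0.26, FDR = 0.192). With either margin library left out the margin was 1 library and 9 genes passed, Thbs1 among them as lower at the center. Those fits called 5508 of 15123 and 7405 of 14553 genes in all, against 176 with both margin libraries. Thbs4 had at most 0.724 CPM.

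Tnxb in epidermis was at the limit of detection at the center, with 2 and 1 counts (0.0294 and 0.0181 CPM), and had 1.98 and 15.9 CPM at the margin. The margin libraries held 1444 counts and the center libraries 3, a ratio of 487 per read sequenced with an exact 95% interval for counting error of 166 to 2363. The 2 margin libraries differed by several fold from each other, which that interval does not cover, and in edgeR's test the contrast missed the threshold (FDR = 0.083). Fibroblast markers summed to 6221 and 5161 CPM in center epidermis against 2267 and 755 CPM at the margin, so they moved with the center as Spp1 and Fn1 did and opposite to Tnxb and Thbs1. The 5 smooth muscle and myofibroblast markers summed to 54.2 and 51.1 CPM at the center against 5.33 and 6.86 CPM at the margin (median log2 fold change 4.64). Of these 5 markers 2 were called higher, against 0.882% of all genes tested. The 6 endothelial markers summed to 34.9 and 25.0 CPM against 6.29 and 1.68 CPM (median 3.75). None was called by edgeR and all 6 had an unadjusted p under 0.05, against 23.5% of all genes tested. The part of these markers in the differences was not tested.

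In dermis none of the 10 genes passed between center and margin in edgeR's test at FDR 0.05, where 0.850% of 14698 genes were called and 15.8% had an unadjusted p under 0.05. At that unadjusted threshold 2 of the 10 genes, Fn1 and Postn, were higher at the center, and DESeq2 called both at FDR 0.05, while the earlier estimate of edgeR 3 called none. Fn1 had 2446 and 2839.9 CPM at the center and 1822 and 1531 CPM at the margin (log2 fold change 0.74, standard error 0.21, FDR = 0.164). Postn had 23481 and 18238 CPM at the center and 11339 and 13576 CPM at the margin (log2 fold change 0.84, standard error 0.32, FDR = 0.241). Both genes were separated by region in these 4 libraries, but the further 3 wild-type center libraries held 12314, 17153 and 23703 CPM of Postn, which overlaps the margin. How many of all genes were separated in this way was not counted.

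Spp1 and Thbs4 differed most between the 2 center dermis libraries, with Spp1 at 78.3 and 612 CPM and Thbs4 at 6.80 and 126 CPM, against 179 and 154 CPM and 27.0 and 27.0 CPM at the margin. Without center replicate 1 both passed as higher at the center (FDR = 0.0045 and 0.0035), and without center replicate 2 both had the opposite sign. Sparc varied least, from 17989 to 19747 CPM (log2 fold change 0.17, standard error 0.30, FDR = 0.858). Keratinocyte markers summed to 663 and 466 CPM at the center and 2397 and 4857 CPM at the margin. Of these 14 markers 8 were lower at the center, against 0.850% of all genes called in either direction.

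The center over margin contrast of Tnxb differed between the layers. Of the 10 genes it alone passed the test of that difference, against 3.48% of 15531 genes, 0.135% in its direction, with a log2 value for epidermis minus dermis of -8.79 (standard error 1.86, FDR = 0.0279). The 3 counts of center epidermis set its size, and it missed the threshold with 6 of the 8 libraries left out in turn (FDR 0.0718 to 0.136). The other 9 genes had differences of -0.04 (Thbs1) to 2.92 (Spp1), with FDR values of 0.152 or more, beside a median of 0.31 over all genes.

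Of 28 further matricellular genes, 6 of 23 tested were higher at the epidermal center and none was lower (median log2 fold change 1.64, against 1.31 for the 10 genes and -0.02 for all genes). Of all genes tested there, 0.882% were called higher. The 6 matricellular genes that were called are described first. They included Fbln5, an elastic fiber protein (log2 fold change 4.12, standard error 0.45, FDR = 0.0367), and the CCN protein gene Ccn1, counted as Cyr61 (log2 fold change 3.17, standard error 0.37, FDR = 0.0369). Of 18 receptor genes 1 rose, Itga5, the fibronectin receptor subunit (log2 fold change 2.33, standard error 0.28, FDR = 0.0369). In dermis none of 18 receptor genes was called by edgeR, with 8 at an unadjusted p under 0.05, against 15.8% of all genes tested.

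**Figure D4:**
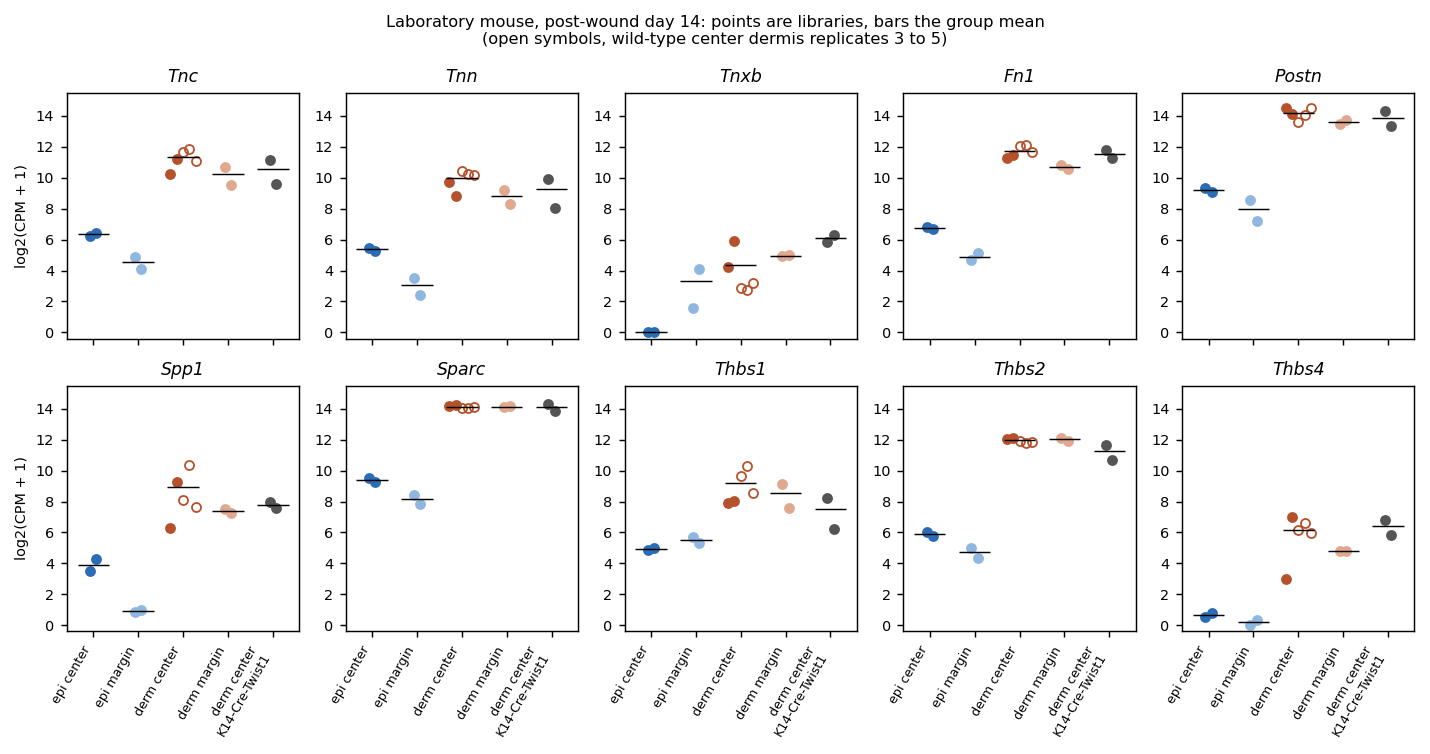
Levels of the 10 genes in the 13 laboratory mouse libraries at PWD14 as log2(CPM + 1). Points are libraries, horizontal bars the group means, and open circles the wild-type center dermis replicates 3 to 5 that were compared with K14-Cre-Twist1. Tnxb is higher in both K14-Cre-Twist1 libraries than in those 3, while center dermis replicate 2 lies at a similar height.

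K14-Cre-Twist1 center dermis was compared with wild-type center dermis replicates 3 to 5. Twist1 itself had 57.7, 36.3 and 105 CPM in these wild-type dermis libraries and 73.4 and 44.0 CPM in the K14-Cre-Twist1 libraries (log2 fold change -0.19, standard error 0.47, FDR = 0.885), which does not test a deletion in keratinocytes. Tnxb was the 1 gene of the 10 that passed, against 0.0565% of 14163 genes, 0.0494% as higher. It had 6.19, 5.69 and 8.01 CPM in wild type and 56.3 and 76.3 CPM in K14-Cre-Twist1. The groups did not overlap, with means of 6.63 and 66.3 CPM (log2 fold change 3.30, standard error 0.38, FDR = 0.0474). Without K14-Cre-Twist1 replicate 2, the library rich in keratinocyte markers, the log2 fold change was 3.10 (FDR = 0.0191). Wild-type center replicates 1 and 2, which the study compared with the margin, had 17.4 and 58.2 CPM, the latter within the K14-Cre-Twist1 range, and with all 5 libraries as controls the call was lost (log2 fold change 1.88, FDR = 0.287). With all 9 dermis libraries and the comparison set as a covariate it was kept (log2 fold change 3.28, FDR = 0.02). It was also lost without wild-type replicate 3 (FDR = 0.739), 4 (0.47) or 5 (0.226).

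Among the other genes Thbs1 differed most. It had 811, 1235 and 371 CPM in wild type and 296 and 74.9 CPM in K14-Cre-Twist1, without overlap (log2 fold change -2.09, standard error 0.66, FDR = 0.32). The share of all genes without overlap here was not counted. Tnc had 3217, 3739.8 and 2214 CPM against 2234 and 761 CPM (log2 fold change -1.01, standard error 0.49, FDR = 0.46), and Tnn 1393, 1189 and 1152 CPM against 946 and 262 CPM (log2 fold change -1.02, standard error 0.50, FDR = 0.457). In all of these replicate 2 was the lower of the K14-Cre-Twist1 pair. With replicate 2 as the only K14-Cre-Twist1 library, Tnc, Tnn, Thbs1 and Thbs2 passed as lower (log2 fold changes -2.05, -2.30, -3.46 and -1.23), in a fit that called 3353 of 14915 genes, and without it none of them did. Its fibroblast markers summed to 84722 CPM, against 129756 CPM in replicate 1 and 109215 to 161197 CPM in the 5 wild-type libraries. In edgeR's test none of 25 further matricellular or 17 receptor genes was called in this comparison at FDR 0.05. An unadjusted p under 0.05 was found for 5 of each, against 11.5% of all genes tested.

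Levels can be compared between genes only per length of transcript, for which the merged exon length stands in here. That length joins all annotated exons of a gene, so it can exceed the length of the transcripts present. The order of genes with close values may depend on it. With CPM divided by the merged exon length in the GENCODE annotation of GRCm38, the 5 wild-type center dermis libraries gave medians of 4766 CPM per kilobase for Sparc, 2096 for Postn, 540.02 for Thbs2, 302 for Tnc, 277 for Fn1, 198 for Tnn, 163 for Spp1, 61.1 for Thbs1, 21.0 for Thbs4 and 0.656 for Tnxb. Sparc, Postn and Thbs2 were each above the next gene in this order of medians in every library, although Spp1 in replicate 4, at 785, exceeded the highest Thbs2 value of 634. Tnc, Fn1, Tnn, Spp1 and Thbs1 overlapped with their neighbours in this order. Thbs1, at 39.1 or more, stood just above the highest Thbs4 value of 38.3, and Thbs4 and Tnxb overlapped because of Thbs4 in replicate 1 and Tnxb in replicate 2. Of the genes that share exon bases with another annotated gene, Spp1 shares 18.8% of its exon length with Gm42793 on the same strand, and Tnc, Fn1 and Thbs1 share 2.27% to 3.42% with a gene on the opposite strand, which the unstranded spiny mouse libraries cannot separate.

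Over the 9 laboratory mouse dermis libraries the genes of most similar pattern were ranked by Pearson's r of log2(CPM + 1) among 13995 genes. The closest were Fkbp10 for Tnn (r = 0.992), Itga5 for Fn1 (0.968), Car2 for Tnc (0.954), Ctsl for Spp1 (0.952), Inhbb for Thbs1 (0.967), Ndnf for Tnxb (0.949), Deb1 for Thbs2 (0.990), 2810025M15Rik for Sparc (0.968), Rundc3a for Thbs4 (0.943) and Parp10 for Postn (0.937). Fkbp10 is a collagen chaperone of the endoplasmic reticulum and Itga5 the fibronectin receptor subunit named above. With 9 libraries that share differences of genotype, region and makeup, and a search over all genes, values of this size are a description only.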

How the data were processed

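RNA of dorsal epidermis and dermis was sequenced in 25 libraries made with a TruSeq RNA kit, stranded for the laboratory mouse and unstranded for the spiny mouse. Each deposited file holds raw read counts for 24500 gene symbols, and 5 summary lines were left out. The submitters' notes name STAR 2.4.1d, HTSeq 0.6.0 and genome build mm10. Spiny mouse reads were counted on that laboratory mouse genome. Counts were tested here with edgeR 4.0.16 in R 4.3.3 (TMM scaling, filterByExpr, prior count 0.125, quasi-likelihood test, Benjamini-Hochberg adjustment over all tested genes), checked on simulated counts. Standard errors are the log2 fold change divided by the square root of F. DESeq2 1.42.0, other scalings, no low-count filter, other sample choices and leaving out each library were alternatives, and the estimate of edgeR 3 was added after the data were seen. Wild-type center dermis was divided by the library names of the study's own comparisons. The study calls its duplicates independent, but the labels name no animals, so p-values measure the spread between libraries. Replicate pairs differed by far more than counting noise. The 10 genes and all marker lists were chosen with earlier results of these data known. The named genes are the 10, Twist1, the up to 3 called genes of smallest p per list and comparison, and genes of most similar pattern. Matricellular genes were matched by older symbols where needed. The study's sample list gives days that differ by 1 or 2 from the labels used here. Spiny mouse layers were parted with trypsin, laboratory mouse layers by hand.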

Additional observations from a re-analysis of the deposited data

Results flagged for a closer look

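Tnxb in wild-type center dermis replicate 2 stood at 58.2 CPM, far above the other 4 libraries of its group (6.19, 5.69, 8.01 and 17.4 CPM). It was the 1 value out of 10 genes checked in this group of 5 that lay beyond Dixon's limit. Chance exceeds that limit in about 1 of 20 groups if the values are normally distributed and from 1 population. Here CPM were used without logs, and the 5 libraries come from 2 comparisons of the study. The center over margin contrast of Tnxb differed between epidermis and dermis by -8.79 on the log2 scale in a test of the difference itself (FDR = 0.0279 in edgeR), with 3 counts in the 2 center epidermis libraries.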

How the results depend on the processing

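Of 1240 values of the 10 genes under alternatives, 1114 kept their direction and side of the threshold, 39 lost a call, 56 gained one and 31 changed sign, none of the last among called results. Of 126 counts of called genes, 100 were within 1.5 times the reported one. With DESeq2 the count became 7 for center over margin in laboratory mouse epidermis, 2 in dermis, 2 for K14-Cre-Twist1, 2 for the difference between layers and 6 for spiny mouse dermis PWD28 over PWD21. The edgeR 3 estimate, chosen after seeing the data, gave 0 for laboratory mouse epidermis and 0 for K14-Cre-Twist1, and all 5 wild-type center libraries gave 0 for K14-Cre-Twist1. Leaving out each library in turn gave counts of 0 to 9 for laboratory mouse epidermis, 0 to 2 for dermis, 0 to 5 for K14-Cre-Twist1, 0 to 2 for the difference between layers, 3 to 5 for spiny mouse epidermis PWD14 over PWD21 and 0 to 6 for spiny mouse dermis PWD28 over PWD21. The same fits called, over all genes, 70 to 7405, 19 to 241, 1 to 3353, 167 to 1343, 3470 to 6635 and 1 to 1245 in that order. The cause was not tested.

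Signs changed for Tnn in spiny mouse epidermis PWD14 over PWD21 with library size alone (log2 fold change -0.04), and for Tnxb (-0.57) and Thbs1 (0.81) in laboratory mouse dermis with all 5 center libraries. With single libraries left out, log2 fold changes of uncalled results ran as follows. In laboratory mouse dermis, center over margin, Tnxb ran from -0.67 to 0.99, Spp1 from -0.96 to 1.93, Thbs1 from -1.1 to 0.52, Thbs2 from -0.01 to 0.28 and Thbs4 from -1.86 to 2.27. For K14-Cre-Twist1 Postn ran from -0.84 to 0.21, Sparc from -0.29 to 0.29 and Thbs4 from -0.48 to 0.64. For the difference between layers Postn ran from -0.14 to 1.29, Thbs1 from -1.19 to 0.43 and Thbs4 from -0.79 to 6.35. In the spiny mouse, epidermis PWD14 over PWD21 gave -0.13 to 3.19 for Tnn and -0.6 to 0.33 for Fn1, dermis PWD21 over PWD0 -0.05 to 0.75 for Sparc and -0.08 to 0.3 for Thbs1, dermis PWD14 over PWD0 -0.3 to 0.41 for Sparc and -0.38 to 0.01 for Thbs1, and PWD21 epidermis over dermis -0.72 to 0.47 for Tnxb and -0.38 to 0.12 for Thbs1.

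Over all genes, the calls for laboratory mouse epidermis were 176, against 1544 with DESeq2 and 0 with the edgeR 3 estimate. Those for dermis were 125, against 738, 54, 323 with all 5 center libraries and 5 with all 9 dermis libraries and a covariate for the comparison set. Those for K14-Cre-Twist1 were 8, against 520, 2, 190 and 75 in the same order. The difference between layers had 540 against 1188 with DESeq2, and spiny mouse dermis PWD28 over PWD21 had 257 against 594 with DESeq2, 401 with RLE scaling and 432 with library size alone. Library size alone moved the median of all genes by -0.72 (center) and -0.82 (margin) between laboratory mouse layers and by -0.72 for spiny mouse epidermis PWD14 over PWD0. Depth limits Tnxb in center epidermis (3 counts), Tnn in unwounded dermis and Thbs4 in epidermis. No paired analysis was possible because the labels give no replicate numbers that groups share.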
